A study of Mus musculus with 4 samples.

Results

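The genes described here are 38 genes that act in mitosis or in the preceding G2 phase, chosen from textbook knowledge as those whose transcripts accumulate late in the cell cycle. A probe was taken as a member when its gene name, or the current symbol of its RefSeq accession, was 1 of the 38. All 38 genes were on the array, with 54 probes, among 47866 features in all. RNA came from 2 samples of FVB mice that carried an Adamts1 transgene and from 2 samples of wild-type FVB mice. All mice were male and 4 weeks old, none was treated, and the cells were adipocyte progenitors sorted by flow cytometry from subcutaneous fat and lysed without culture. Each sample was on 1 single-colour Agilent array, and the question asked of these genes is whether their transcripts differ in the cells of mice with the transgene. Adamts1 encodes a secreted metalloprotease that cleaves proteoglycans of the extracellular matrix. What drives the transgene, and in which cells, is not in the labels, and neither is whether each sample was a mouse of its own. The p-values below therefore speak of the spread among these 4 samples.

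A dividing cell builds up most of these transcripts as it passes from DNA replication towards division and loses them when it leaves the cycle, so that in bulk RNA their level goes with the share of cells in G2 and mitosis. The cyclins and Cdk1 drive entry into mitosis, kinesins and other microtubule proteins build the spindle, and the spindle checkpoint holds the cell until every chromosome is attached. The anaphase-promoting complex then releases the chromosomes, and Anln and Ect2 help to pinch the cell apart. Adipocyte progenitors in young animals divide before they differentiate into fat cells. In bulk samples fewer cells of a type and less RNA per cell cannot be told apart.

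Promoters of such genes are known for a pair of short motifs, the CAAT box, bound by NF-Y, and the cell cycle genes homology region or CHR, bound by the MuvB core of the complexes that repress and then activate G2/M genes. The letters CCAAT for the CAAT box, TTTGAA for the CHR and TTCGAA for its variant were searched on both strands from 250 bases before to 50 bases after the annotated start in RefSeq promoters of GRCm38.p6. Of the 38 genes 31 had a promoter there. CCAAT was found in 74.2% of the 31, against 41.1% of all 27025 genes, and TTTGAA likewise in 74.2%, against 20.2% of all genes. Both stood in 64.5% of the 31, against 7.97% of all genes, while TTCGAA was in 9.68%, against 1.80%. A CAAT box and a CHR overlapped at 1 place in the members' promoters, in Cdca8. A match is a string of letters and not a measured binding site. The 5 sequences below, with matches of the 3 motifs in capitals, run 5′ to 3′ from 250 bases before to 20 bases after the start. They are shown because Top2a holds 6 CAAT boxes, 2 CHRs and 2 variants, Ccnb2 holds 3 CAAT boxes before a CHR near the start, Cdc20 holds a CHR between a pair of CAAT boxes, Hmmr, whose groups overlapped on the arrays, holds 5 CAAT boxes and 1 CHR, and Birc5 holds none of the 3.
Top2a, chr11:99024170-99024439, minus strand: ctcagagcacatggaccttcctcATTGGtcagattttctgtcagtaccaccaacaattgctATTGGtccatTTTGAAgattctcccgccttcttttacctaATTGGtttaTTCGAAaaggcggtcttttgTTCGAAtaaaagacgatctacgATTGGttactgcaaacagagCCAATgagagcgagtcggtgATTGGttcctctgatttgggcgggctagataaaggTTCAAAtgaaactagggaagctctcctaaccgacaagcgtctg
Ccnb2, chr9:70421535-70421804, minus strand: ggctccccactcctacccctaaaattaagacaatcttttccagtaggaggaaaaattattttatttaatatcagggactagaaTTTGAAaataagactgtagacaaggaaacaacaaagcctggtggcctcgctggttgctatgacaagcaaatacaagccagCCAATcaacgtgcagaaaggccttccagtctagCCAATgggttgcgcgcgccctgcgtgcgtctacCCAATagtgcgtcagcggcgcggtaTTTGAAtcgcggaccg
Cdc20, chr4:118437324-118437593, minus strand: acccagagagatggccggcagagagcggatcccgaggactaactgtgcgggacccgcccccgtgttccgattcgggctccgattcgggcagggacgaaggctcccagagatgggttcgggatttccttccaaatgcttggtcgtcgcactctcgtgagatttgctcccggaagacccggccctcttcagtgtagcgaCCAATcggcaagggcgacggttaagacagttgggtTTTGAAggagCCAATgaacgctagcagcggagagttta
Hmmr, chr11:40733418-40733687, minus strand: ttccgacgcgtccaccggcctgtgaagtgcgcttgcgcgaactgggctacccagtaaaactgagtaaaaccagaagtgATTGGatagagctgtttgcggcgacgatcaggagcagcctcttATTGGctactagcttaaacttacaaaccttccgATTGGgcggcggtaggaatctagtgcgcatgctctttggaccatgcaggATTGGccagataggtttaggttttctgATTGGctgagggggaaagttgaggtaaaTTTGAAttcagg
Birc5, chr11:117848987-117849256, plus strand: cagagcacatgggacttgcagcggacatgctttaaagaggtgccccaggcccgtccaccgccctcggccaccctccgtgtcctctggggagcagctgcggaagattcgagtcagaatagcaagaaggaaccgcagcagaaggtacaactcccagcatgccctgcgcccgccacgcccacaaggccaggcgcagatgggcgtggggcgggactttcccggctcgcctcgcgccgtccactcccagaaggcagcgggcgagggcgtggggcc

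The arrays were alike in quality apart from wild-type array 1, on which 47.0% of spots were well above background, against 57.0% and 56.0% on the transgenic arrays and 55.5% on wild-type array 2. Pearson's r across the 24518 tested features, which are not independent replicates, was 0.994 for the transgenic pair of arrays and 0.984 for the wild-type pair. The 1 probe for Adamts1 read 6.77 and 6.82 on the transgenic arrays and 6.65 and 6.73 on the wild-type arrays, a 1.08-fold difference with adjusted p = 0.573 in the limma fit. No source used here tells whether the transgene's RNA holds that probe, so the probe checks no label. These values, like all levels below, are normalised log2 signals, in which 0 is the 75th percentile of that array's signal. Markers of the sorted cell type were high on every array: Pdgfra read 5.28 and 5.42 on the transgenic arrays and 5.23 and 5.32 on the wild-type arrays, and Dcn and Cd34 read above 8 on all 4. Markers of other cells were present too. Of 14 macrophage and myeloid markers 8 (Cd74, Lyz2, Pf4, C1qb, C1qc, Mrc1, Tyrobp and Ptprc) were called higher in the transgenic samples, where 0.967% of all features were. The mean level of the 14 was -0.48 and -0.55 on the transgenic arrays against -2.52 and -2.90 on the wild-type arrays. Of the 14, 7 had both arrays well above background in the transgenic group alone, among them Lyz2, C1qc, Mrc1 and Ptprc. The count and the means therefore lean towards the transgenic side.

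Of the 38 genes 35 were tested, 29 of them well above background on all 4 arrays and 6 through the transgenic arrays alone. A probe that passes only through the group where it is bright had to differ, so counts over the 35 lean towards the transgenic side. None of the 35 was called at an adjusted p under 0.05 (0 of 35, limma with Benjamini-Hochberg adjustment over all features), where 1.73% of all features were called, 0.967% higher and 0.759% lower. At an unadjusted p under 0.05, 28 of the 35 were higher and 0 lower in the transgenic samples, where 9.25% of all features were higher and 9.76% lower. Without wild-type array 2, 10 of 35 (28.6%) were higher at that p, where 15% of all features were. Without wild-type array 1, the dimmer one, 34 of 36 (94.4%) were, where 9.62% of all features were. The fitted difference was positive for 34 of the 35, against 47.8% of features, and at least 2-fold for 26, against 4.58%. The 26 include Cdc25c and Kif2c, which were below background on both wild-type arrays and had lower bounds of 1.97-fold and 1.95-fold. Both transgenic arrays lay above both wild-type arrays for 31 of the 35 (88.6%), against 24.5% of features. The median difference was 1.26 on the log2 scale, or 1.24 with genes below background on both wild-type arrays set at their bound, and the median of all features was -0.0161. It was 0.80 without transgenic array 2, 1.52 without wild-type array 1 and 0.78 with normexp background correction. The members' differences stayed within 1.5 times of the fitted value for 12 of the 35 genes without transgenic array 2, for 27 without wild-type array 2, for 31 without either of the other arrays, and for 22 with normexp, where the other 13 were smaller. The transgenic samples also had the higher macrophage levels given above, and the part of those cells in the members' levels was not tested.

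**Figure D1:**
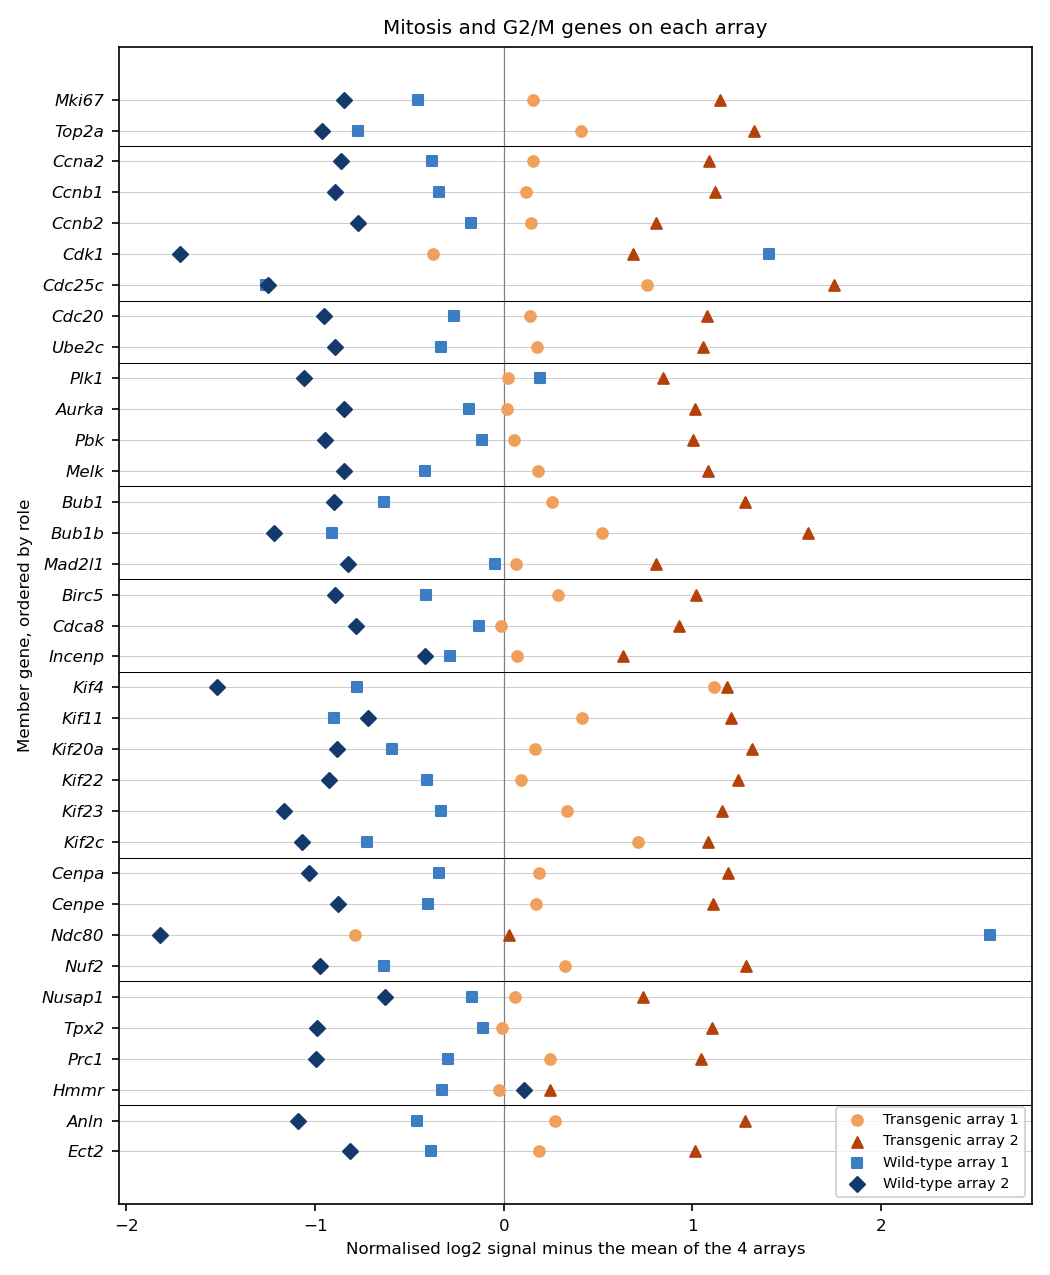
Normalised log2 signal of 35 genes on each array, as the distance from the gene's mean over the 4 arrays; circles and triangles are the 2 transgenic arrays, squares and diamonds the 2 wild-type arrays, and black lines part the roles. Transgenic array 2 lies to the right of transgenic array 1 for all 35 genes, and both lie to the right of both wild-type arrays for 31; Ttk, Aurkb and Cenpf were not tested and are not drawn.

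Mki67, whose protein coats mitotic chromosomes and is the common marker of dividing cells, read 1.64 and 2.63 on the transgenic arrays, against 1.03 and 0.64 on the wild-type arrays. Both transgenic arrays were the higher ones, and the second lay further from the first than the wild-type arrays lay from each other. The difference was 1.30 ± 0.34 (SE, n = 2 per group), or 2.47-fold, with adjusted p = 0.141 in limma. Top2a, the topoisomerase that untangles DNA before chromosomes part, read -0.64 and 0.28 on the transgenic arrays, against -1.82 and -2.01 on the wild-type arrays. The groups were well apart, and the lower transgenic array exceeded the higher wild-type array by 1.17. Its difference of 1.73 ± 0.32 (3.32-fold, adjusted p = 0.0765) was the largest among members above background on all 4 arrays.

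Cyclins A2, B1 and B2, encoded by Ccna2, Ccnb1 and Ccnb2, activate Cdk1, and all 3 were higher on both transgenic arrays. Ccna2 read 0.04 and 0.97 in the transgenic samples, against -0.50 and -0.98 in the wild-type samples. Ccnb1 read -0.13 and 0.87 in the transgenic samples, against -0.59 and -1.14 in the wild-type samples. Ccnb2 read 2.09 and 2.75 in the transgenic samples, against 1.77 and 1.17 in the wild-type samples. In each of them wild-type array 1 came closest to the transgenic samples, and the differences were 1.25, 1.24 and 0.95 with adjusted p from 0.153 to 0.176 in limma. Cdk1, the kinase itself, read -2.02 and -0.96 on the transgenic arrays, against -0.24 and -3.36 on the wild-type arrays. Here wild-type array 1 was the highest of the 4, so the groups overlapped and the difference was 0.31 ± 1.02 (adjusted p = 0.895, 95% interval -2.26 to 2.89). It was 1.87 without wild-type array 1 and -1.24 without wild-type array 2. Another Cdk1 probe shares 41 bases with this one and was not well above background on any array.

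Cdc25c, the phosphatase that switches Cdk1 on, read -3.78 and -2.79 on the transgenic arrays, against -5.80 and -5.79 on the wild-type arrays. Neither wild-type array had it well above background, which leaves only a bound: the transgenic samples were at least 1.97-fold higher (adjusted p = 0.0660). A pair of kinesins share this limit. Kif4, which works on chromosome arms and the central spindle, read -2.97 and -2.90 on the transgenic arrays, against -4.86 and -5.60 on the wild-type arrays. It was at least 2.52-fold higher, and its adjusted p of 0.0549 was the lowest of the 35 genes. Kif2c, which removes tubulin from microtubule ends at the centromere, read -3.49 and -3.12 on the transgenic arrays, against -4.93 and -5.27 on the wild-type arrays, at least 1.95-fold higher (adjusted p = 0.0720). These 3 differences depended on the background correction: with normexp and an offset of 50 the fitted log2 values were 0.31 for Cdc25c, 0.41 for Kif4 and 0.20 for Kif2c. The adjusted p of these 3 genes belongs to the fitted difference, not to the bound, and rests on wild-type values below background. Among members above background on all 4 arrays the lowest adjusted p in limma was 0.0765, for Top2a.

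Cdc20 brings substrates to the anaphase-promoting complex, and Ube2c supplies it with ubiquitin. Cdc20 read 1.13 and 2.07 on the transgenic arrays, against 0.73 and 0.04 on the wild-type arrays, and Ube2c read 0.16 and 1.04 on the transgenic arrays, against -0.35 and -0.91 on the wild-type arrays. Both genes had all transgenic values above all wild-type values, with differences of 1.22 and 1.23 (adjusted p = 0.178 and 0.155 in limma).

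Among the mitotic kinases, Aurka, which matures the spindle poles, read -0.91 and 0.09 on the transgenic arrays, against -1.11 and -1.77 on the wild-type arrays. Plk1, which acts from mitotic entry to cytokinesis, read 0.57 and 1.39 on the transgenic arrays, against 0.74 and -0.51 on the wild-type arrays. Aurka parted the groups by a narrow margin of 0.21, while for Plk1 wild-type array 1 lay above transgenic array 1 and the groups overlapped. The differences were 1.03 ± 0.39 for Aurka and 0.87 ± 0.47 for Plk1 (adjusted p = 0.248 and 0.378). Aurka differed by 0.53 without transgenic array 2, and Plk1 by 0.46 without that array, 0.24 without wild-type array 2 and 1.49 without wild-type array 1. Pbk and Melk, a pair of further kinases of dividing cells, differed by 1.06 and 1.26, without overlap, and Melk by 0.59 with normexp.

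The spindle checkpoint was represented by Bub1, Bub1b and Mad2l1, since its kinase Ttk was not well above background on any array. Bub1b, which blocks Cdc20 until chromosomes are attached, read -2.28 and -1.19 on the transgenic arrays, against -3.71 and -4.02 on the wild-type arrays. The transgenic values stood at least 1.44 above the wild-type ones, and the difference was 2.14 ± 0.41 (4.40-fold, adjusted p = 0.0788), although only 1 of the 2 wild-type arrays was above background. With normexp the difference of Bub1b was 0.89. Bub1, the kinase that recruits checkpoint proteins to the kinetochore, was printed at 10 spots per array, which shows the error within an array. The spots averaged -3.12 ± 0.17 and -2.10 ± 0.07 (SD) on the transgenic arrays, against -4.01 ± 0.25 and -4.28 ± 0.18 on the wild-type arrays, where 1 spot of wild-type array 1 was left out as an outlier. The SD between spots covers printing and hybridisation within an array alone, and not labelling or the spread between samples. Bub1 differed by 1.54 between the groups, also with 1 of 2 wild-type arrays above background, and Mad2l1, the checkpoint protein that binds Cdc20, by 0.87 (adjusted p = 0.144 and 0.270). With normexp Bub1 differed by 0.39.

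The chromosomal passenger complex holds the kinase Aurkb with Birc5, Cdca8 and Incenp and corrects faulty attachments. Aurkb was not well above background on any array. Birc5, also called survivin, read 1.93 and 2.66 on the transgenic arrays, against 1.23 and 0.75 on the wild-type arrays. Cdca8 read 0.82 and 1.76 in the transgenic samples, against 0.70 and 0.05 in the wild-type samples. Incenp, the scaffold, read 1.65 and 2.21 in the transgenic samples, against 1.29 and 1.16 in the wild-type samples. All 3 were higher on both transgenic arrays, Cdca8 by a margin of only 0.11, with differences of 1.31 ± 0.28, 0.91 ± 0.37 and 0.70 ± 0.20 (adjusted p = 0.102, 0.267 and 0.158).

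All 6 kinesins were higher on both transgenic arrays, against 24.5% of features, but 3 of the 6 (Kif4, Kif2c and Kif11) had passed through the transgenic arrays alone. The median difference of the 6 was 1.55, or 1.41 with Kif4 and Kif2c at their bounds. Kif20a, a motor of the central spindle, read -0.79 and 0.36 in the transgenic samples, against -1.55 and -1.84 in the wild-type samples. Kif22, a motor that moves chromosome arms, read -0.20 and 0.95 in the transgenic samples, against -0.70 and -1.22 in the wild-type samples. These 2 had the widest steps between the transgenic arrays, 1.15 and 1.16. Kif11, which pushes the spindle poles apart, differed by 1.61 with 1 of 2 wild-type arrays above background, and by 0.24 with normexp. Kif23, part of the complex that bundles the central spindle, differed by 1.49, and by 0.51 with normexp.

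At the centromere, Cenpa, the histone H3 variant that marks it, read -0.32 and 0.68 on the transgenic arrays, against -0.85 and -1.54 on the wild-type arrays. Cenpe, a kinetochore motor, read 0.55 and 1.49 on the transgenic arrays, against -0.02 and -0.50 on the wild-type arrays. Both showed the same order of arrays, and the differences were 1.37 and 1.28 (adjusted p = 0.164 and 0.148). Nuf2 and Ndc80 are partners in the complex that grips microtubules, yet their arrays were ordered differently. Nuf2 read -2.08 and -1.12 in the transgenic samples, against -3.04 and -3.38 in the wild-type samples, a difference of 1.61, or 0.70 with normexp. Ndc80 read -3.00 and -2.18 in the transgenic samples, against 0.37 and -4.03 in the wild-type samples. Wild-type array 1 alone set Ndc80 apart, with the only negative difference of the 35 genes, -0.76 ± 1.38 (adjusted p = 0.800), which was 1.44 without that array and -2.96 without wild-type array 2, where it was called lower (adjusted p = 0.0244 in limma). Cdk1 and Ndc80 were 2 of only 85 features (0.347%) that read at least 3 higher on wild-type array 1 than on wild-type array 2. Cenpf was above background on 1 array of each group and was not tested, with -2.11 and -5.70 on the transgenic arrays and -3.65 and -4.14 on the wild-type arrays.

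Among the microtubule proteins, Prc1, which crosslinks the central spindle, read 1.15 and 1.95 on the transgenic arrays, against 0.61 and -0.09 on the wild-type arrays. Tpx2, an activator of Aurora A, read -1.11 and 0.00 in the transgenic samples, against -1.21 and -2.09 in the wild-type samples, and Nusap1, which stabilises spindle microtubules, differed by 0.80. Prc1 parted the groups by 0.54 and Tpx2 by 0.10, with differences of 1.29 ± 0.34 and 1.10 ± 0.46 (adjusted p = 0.145 and 0.281). Hmmr, a spindle pole protein that is also a hyaluronan receptor, read 1.05 and 1.32 on the transgenic arrays, against 0.75 and 1.18 on the wild-type arrays. Its groups overlapped, and its difference of 0.22 ± 0.18 (adjusted p = 0.549, 95% interval -0.24 to 0.68) was the smallest of the 35 in size. For cytokinesis, Anln, which organises the contractile ring, read 0.35 and 1.36 in the transgenic samples, against -0.38 and -1.01 in the wild-type samples. Ect2, which activates the GTPase RhoA at the ring, read -1.04 and -0.21 in the transgenic samples, against -1.61 and -2.04 in the wild-type samples. Neither overlapped, and they differed by 1.55 ± 0.38 and 1.20 ± 0.32 (adjusted p = 0.129 and 0.150).

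**Figure D2:**
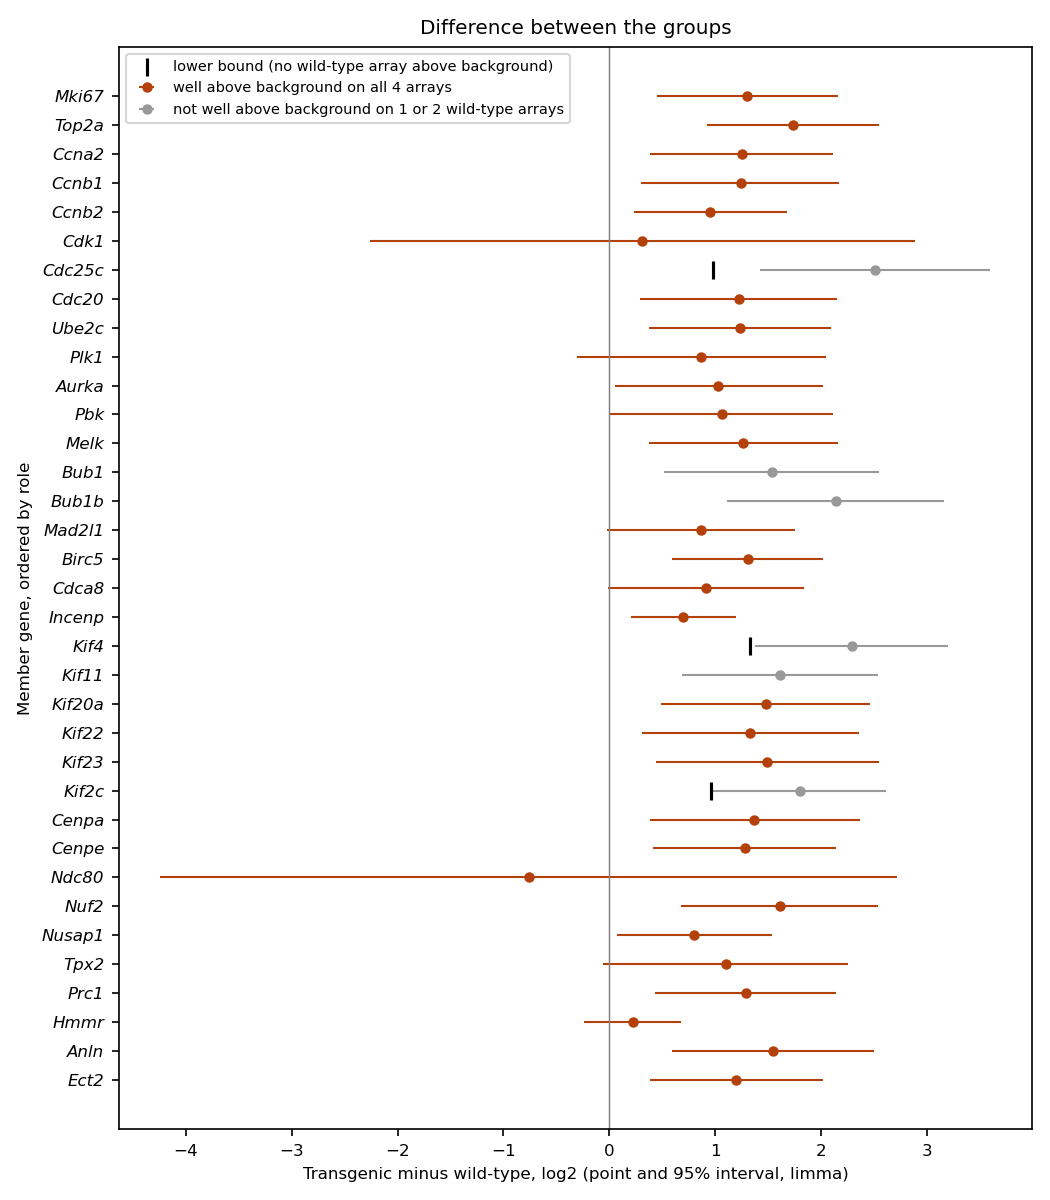
Fitted difference of the 35 genes, transgenic minus wild-type, on the log2 scale with its 95% interval from limma; grey points were not well above background on 1 or 2 wild-type arrays, and black ticks are lower bounds for the 3 genes below background on both. Cdk1 and Ndc80 have the widest intervals, and 34 of the 35 points lie above 0.

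The second pattern lay within the transgenic group. Transgenic array 2 read higher than transgenic array 1 for 35 of 35 genes, where it was higher for 50.8% of all features, and the median step was 0.93 against 0.00. The step was at least 0.5 for 32 of the 35 (91.4%), against 3.73% of features, and ranged from 0.06 for Kif4 to 1.16 for Kif22. The 3 genes below 0.5 were Kif4, Hmmr and Kif2c. Cenpf went the other way, with -2.11 on transgenic array 1 and -5.70 on transgenic array 2, a step of -3.58. Above background on only 1 array of each group, Cenpf had not passed the filter and is not among the 35. Between the wild-type arrays, array 1 was the higher for 32 of the 35, against 52.6% of features. The median step was 0.51, against 0.02 over all features, where its median size in either direction was 0.22. The complete order of transgenic array 2, transgenic array 1, wild-type array 1 and wild-type array 2, from high to low, held for 29 of the 35 (82.9%), against 5.05% of features. Set against the mean of the wild-type arrays, the median member stood 0.79 higher on transgenic array 1 and 1.71 higher on transgenic array 2. The members' spread within a group was thus wide beside their difference between the groups, and the fit that called 237 features higher called 0 of the 35.

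**Figure D3:**
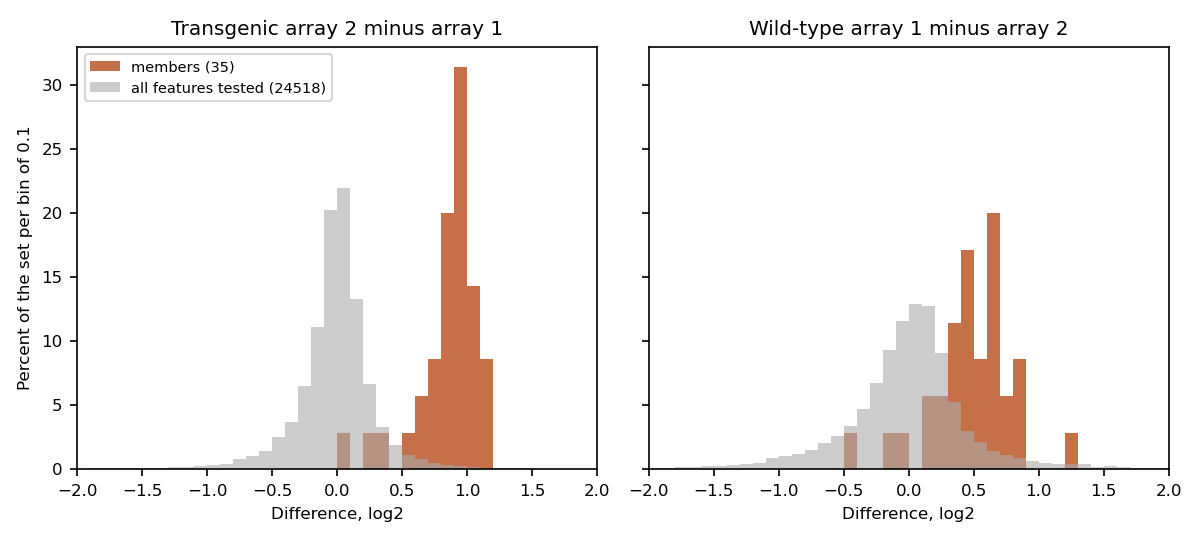
Distribution of the difference between the 2 arrays of a group, in bins of 0.1 on the log2 scale, as a percentage of the 35 genes (orange) and of all 24518 features (grey), with the transgenic arrays on the left and the wild-type arrays on the right. The genes centre on 0.93 between the transgenic arrays and on 0.51 between the wild-type arrays; the axes end at 2 in either direction, which leaves Cdk1 (3.11) and Ndc80 (4.40) off the right panel.

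Other probes of the same genes gave a second reading of the same RNA. Of the 54 probes, 12 were not the brightest of their gene yet were above background on both arrays of a group. Of these, 11 were higher in the transgenic samples and 12 were higher on transgenic array 2 than on array 1. Among all tested features 47.8% had a positive difference and 50.8% were higher on transgenic array 2. The second probes of Ccnb1 and Kif2c and the dimmest probe of Mad2l1 had passed through the transgenic arrays alone, and that of Tpx2 through the wild-type arrays alone. The count of probes higher in the transgenic samples therefore leans to that side. The second Mki67 probe read 1.37 and 2.34 on the transgenic arrays, against 0.71 and 0.37 on the wild-type arrays, and the second Ube2c probe read -0.20 and 0.77 in the transgenic samples, against -0.89 and -1.23 in the wild-type samples. Both repeated the order of their brighter probe. The exception was a Tpx2 probe at -5.10 and -3.34 on the transgenic arrays and -3.27 and -4.28 on the wild-type arrays, and averaging both Tpx2 probes gave a difference of 0.32. Probes of 1 gene share the sample and its RNA, so they check the probe and not the group.

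Beyond the 38 genes, 104 other mitosis genes were listed from textbook knowledge by role, of which 96 were tested. None of the 96 was called in limma (0 of 96), where 1.73% of all features were. At an unadjusted p under 0.05, 48 were higher and 2 lower, where 9.25% of all features were higher and 9.76% lower. Their median difference was 0.59, or 0.52 with bounds, and 20 of them had passed through the transgenic arrays alone. Spindle and cytokinesis genes came closest to the members, with a median difference of 1.27 over 22 genes, or 0.90 with bounds, and a median step of 0.90 between the transgenic arrays; 8 of the 22 had passed through the transgenic arrays alone. The 28 kinetochore genes, 8 of them through the transgenic arrays alone, had a median difference of 0.88, or 0.82 with bounds, and a step of 0.42. The 11 mitotic entry regulators, 3 of them through the transgenic arrays alone, had 0.87, or 0.59 with bounds, and a step of 0.38. The 11 condensin and cohesin-control genes had 0.49 and 0.41. The core anaphase-promoting complex is present through much of the cycle. Its list of 17 genes, which also holds Fzr1, Fbxo5 and Ube2s from outside the core, had a median difference of -0.06 and a step of 0.03. Of the 17, 5 were higher and 12 lower, with Fbxo5 the highest at 0.87. The 4 listed genes with the smallest p were Gas2l3, Depdc1a, Cenph and Cdca5, with differences of 1.31, 2.37, 1.88 and 1.34 and adjusted p from 0.0591 to 0.0953. Depdc1a was below background on both wild-type arrays, with a bound of 1.96-fold, and Cenph on 1 of them. The 7 genes listed as activators of G2/M transcription had a median difference of 0.06 and a step of 0.08, with 4 higher and 3 lower. Foxm1, a transcription factor that drives G2/M genes, is 1 of them and had the largest difference of the 7. It read -1.59 and -0.87 on the transgenic arrays, against -1.92 and -2.26 on the wild-type arrays, in the same order of arrays as most members. The difference of Foxm1 was 0.86 ± 0.29 (adjusted p = 0.212 in limma). Foxm1 was named after its values were seen.

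Of 38 genes of the neighbouring phase, G1/S and DNA replication, 35 were tested and 0 of 35 called in limma. At an unadjusted p under 0.05, 16 were higher and 0 lower, where 9.25% of all features were higher and 9.76% lower. Their median difference was 0.38 and their median step between the transgenic arrays 0.04. Of the 35, 31 had a positive difference, against 47.8% of features, and 27 had both transgenic arrays above both wild-type arrays, against 24.5%. Wild-type array 1 was above wild-type array 2 for 31 of the 35, against 52.6% of features, with a median step of 0.36. Chaf1b, a subunit that loads histones on new DNA, read 0.63 and 0.93 on the transgenic arrays, against -0.11 and -0.13 on the wild-type arrays. Pole, the catalytic subunit of the leading-strand polymerase, read -0.11 and 0.17 on the transgenic arrays, against -0.85 and -0.90 on the wild-type arrays. In both the transgenic arrays lay closer to each other than to the wild-type arrays. With Mcm6 and Cdt1 these were the 4 genes of smallest p, with adjusted p from 0.0560 to 0.0784. Whether the members and the G1/S list differ in their step between the transgenic arrays was not tested.

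**Figure D4:**
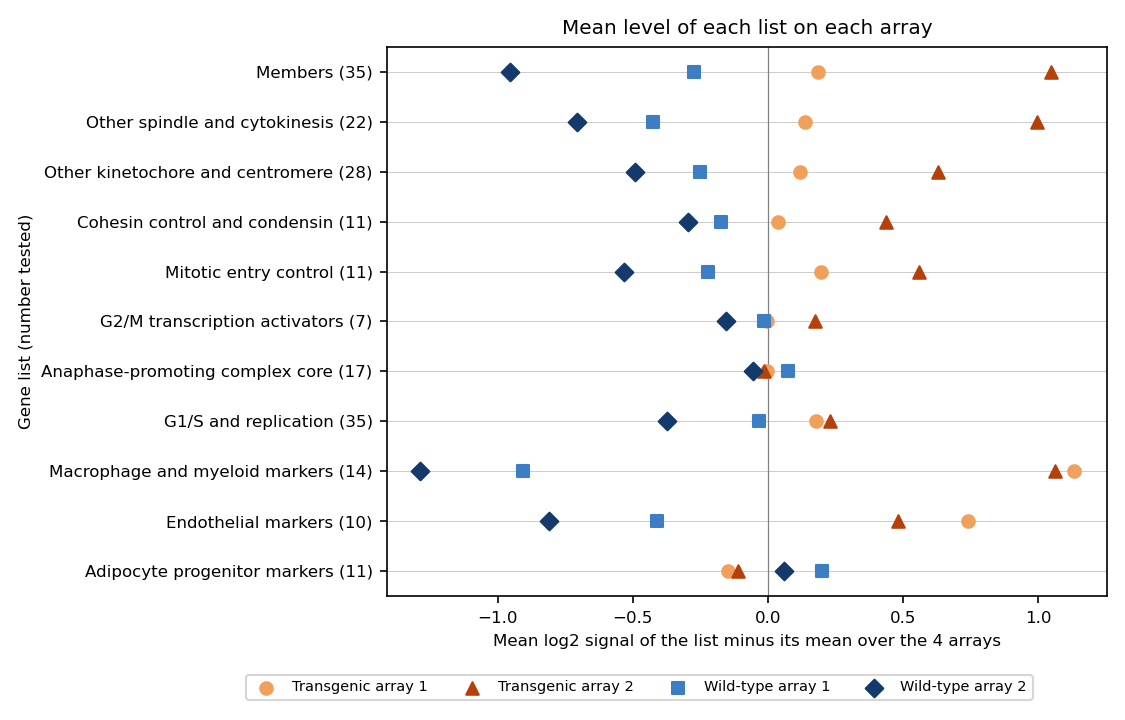
Mean log2 signal of each gene list on each array, as the distance from the list's mean over the 4 arrays, with the number of genes tested in brackets; circles and triangles are the transgenic arrays, squares and diamonds the wild-type arrays. The members and the other spindle genes spread over all 4 arrays. The 2 transgenic arrays lie close together for macrophage markers, and all 4 arrays lie close to 0 for the anaphase-promoting complex core list.

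Marker genes of other cells were read for the same step between the transgenic arrays. Its median was -0.07 for the 14 macrophage markers and -0.11 for 10 endothelial markers, beside 0.93 for the 35 mitosis genes. Itgam, the macrophage marker with the highest level, read 5.56 and 5.47 on the transgenic arrays and 5.56 and 5.60 on the wild-type arrays. Endothelial markers averaged -0.62 and -0.88 on the transgenic arrays and -1.77 and -2.17 on the wild-type arrays, and 1 of 10, Egfl7, was called higher, while Kdr, the brightest of them, read 3.11 and 3.0 on the transgenic arrays and 3.72 and 2.95 on the wild-type arrays. Of the 10, 4 had passed through the transgenic arrays alone, so these means lean to that side. The 11 progenitor markers averaged 5.98 and 6.02 on the transgenic arrays and 6.33 and 6.19 on the wild-type arrays, and 1 of them, Cd24a, was called lower. Mature adipocyte markers had a median step of 0.38 over 4 genes, and Hba-a1, the 1 red cell marker tested, read 1.41 and 2.79 on the transgenic arrays and 1.77 and 0.73 on the wild-type arrays. The red cell marker Alas2 was not well above background on any array. The brightest markers of 3 further cell types were not called in limma. Adipoq of adipocytes read -0.12 and 0.22 on the transgenic arrays and -1.88 and -1.17 on the wild-type arrays (difference 1.57, adjusted p = 0.0687). Tagln of smooth muscle read 2.08 and 1.74 on the transgenic arrays and 0.68 and 1.26 on the wild-type arrays (0.94, adjusted p = 0.124). Of the 6 pericyte and smooth muscle markers 5 were higher and 1 lower, and the dimmer Acta2 and Rgs5 were called higher, by 2.62 and 2.73. Rgs5 was below background on both wild-type arrays, with a bound of 4.91-fold. Cd3e of T cells, in the opposite direction, read 1.97 and 1.80 on the transgenic arrays and 2.45 and 3.34 on the wild-type arrays (-1.01, adjusted p = 0.162). It does not stand for its list: of the 5 lymphocyte markers tested 4 were higher and 1, Cd3e, was lower. The other T cell markers Cd3g and Cd2 differed by 2.51 and 1.37. Cd3g was below background on both wild-type arrays, with a bound of 1.62-fold.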

How the data were processed

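The scanner files that the authors deposited give, per spot, a processed intensity that is background-subtracted and detrended, and raw spot and background intensities used for an alternative; per the file headers, Agilent Feature Extraction 10.7.3.1 wrote them and probes are placed on mm9. No source used here describes how the authors made the log2 values of the deposited series table. Its columns correlated at 0.9998 to 1 with centred scanner values, with medians of -0.045 and 0.019 (transgenic) and 0.195 and -0.021 (wild-type), and it served as an alternative. The 4 arrays shared 1 slide and 1 scan.

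Control and outlier spots were left out, each array's 75th percentile of log2 signal was subtracted, and replicate spots were averaged per probe. The brightest probe stood for its gene, and testing required it to be well above background on both arrays of a group. Names came from RefSeq accessions (26582 probes) or else from the array design. The comparison used limma 3.58.1 under R 4.3.3 (lmFit, eBayes with trend, two-sided; degrees of freedom 2 residual and 3.34 prior). Benjamini-Hochberg adjustment ran over 24518 features, with calls at an adjusted p under 0.05; 423 were called. A bound for a gene below background on both wild-type arrays divides the transgenic mean by that of the wild-type arrays, each at its own value or at that array's lowest signal above background, whichever was higher. The fit was tested on simulated data. The number of arrays limits the precision: features had a median SE of 0.177 (log2), and an exact permutation test of 2 against 2 cannot reach 0.05.

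The 38 genes and all lists were chosen with earlier results of these data known. The rule for named genes took all 38, the 4 of smallest p in each other cell cycle list, called markers and the marker of highest level per list. Foxm1, Fzr1, Fbxo5, Ube2s, Pdgfra, Cd34, Alas2, Cd3g and Cd2 were named outside it. The other marker lists gave 2 of 6 pericyte genes called higher (Acta2, Rgs5), 1 of 4 Schwann genes lower (Mbp) and 0 of 5 lymphocyte and 0 of 4 adipocyte genes called in limma, of which 3 lymphocyte and 4 adipocyte genes were higher and 1 lymphocyte gene lower at an unadjusted p under 0.05. Over all features 0.967% were called higher and 0.759% lower. At the unadjusted p 9.25% of features were higher and 9.76% lower.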

Additional observations from a re-analysis of the deposited data

How the results depend on the processing

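Over 11 settings with all arrays and 4 that left out 1 array, the 35 differences kept their direction except for Cdk1 (-0.22 without transgenic array 2, -1.24 to 1.87 over the arrays left out) and Ndc80 (1.44 without wild-type array 1, -2.96 without wild-type array 2), so both rest on single arrays. Calls among the members, 0 as reported, numbered 3 without a filter on dim probes (Birc5, Bub1b, Top2a), or 7.89% of members against 1.45% of features. With normexp and quantile normalization 1 member was called (Kif4), or 2.86% of members against 1.17% of features. Leaving out 1 array in turn left a group with 1 array, so the size of the difference is given alone. The median difference of the members was 1.71 without transgenic array 1 and 0.80 without transgenic array 2. It was 1.52 without wild-type array 1 and 1.01 without wild-type array 2. Without a filter Ttk and Aurkb, below background everywhere, made 2 members lower without overlap, and all features had a median of -0.20. The features called, 423 as reported, were 695 without a filter, 90 to 3998 with 1 array left out, and 0 without an intensity trend in limma, where 4124 had an unadjusted p under 0.05. Other mitosis genes called numbered 1 with normexp and 1 without a filter. G1/S genes called numbered 2 with normexp, 4 without a filter and 1 with the mean of a gene's probes. Of all features 2.27% were called with normexp, 1.45% without a filter and 1.44% with the mean of a gene's probes. The causes were not tested. With the replicate number as a block, 3 members (Cdc25c, Kif4, Top2a), 3 other mitosis genes, 3 G1/S genes and 774 features were called. That was 8.57% of members and 3.16% of features. Same-numbered arrays did not deviate together (correlation 0.00317), so this block pairs arrays by number alone. The median difference of the members stayed between 0.78 and 1.29 with all arrays and between 0.80 and 1.71 with 1 left out. A group left with 1 array is assumed to vary like the other group. Dim probes limit what can be read: Cdc25c, Kif4 and Kif2c have only bounds, and normexp with its offset shrinks them.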
